A study of Rattus norvegicus with 12 samples.

Results

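Ventral dentate gyrus of male rats that received L-acetyl-carnitine (LAC) and did not respond to it was compared with the same tissue of vehicle-treated rats of the same line. Both groups belong to the Flinders Sensitive Line (FSL), a line of the Sprague-Dawley strain bred for sensitivity to a cholinergic agonist and widely used as a model of depression. The comparison holds 6 of the 12 libraries of the study. LAC non-responders gave 3 libraries from FSL rats that had 0.3% (w/v) LAC in tap water for 7 days, an intake of about 210 mg/kg per day. FSL vehicle gave 3 libraries from FSL rats on tap water alone. The libraries were chosen by their labels, not by measured values. The other 6 libraries, 3 of FSL rats that responded to LAC and 3 of vehicle-treated Flinders Resistant Line (FRL) rats, entered the model as further groups and are given beside single results. No source used here gives the age of the animals or the criterion of response to LAC. All animals of the 6 libraries compared came from 1 selected line, and FSL vehicle animals were not divided by a response to LAC, so a difference that existed before treatment and an effect of LAC cannot be told apart.

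LAC is the acetyl ester of carnitine, the carrier that brings long-chain fatty acids into mitochondria, and it can donate acetyl groups to coenzyme A. The ventral dentate gyrus is the part of the hippocampal granule cell layer tied to anxiety and stress responses. Its granule neurons receive cortical input through glutamate receptors, are held in check by GABAergic interneurons, and carry receptors for the adrenal stress hormones. The tissue also holds glia, among them oligodendrocytes, the cells that wrap axons in myelin.

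RNA of the 6 libraries was sequenced after removal of ribosomal RNA. Reads counted in genes came to between 7070892 and 7723181 per LAC non-responder library and between 6154421 and 7565432 per FSL vehicle library. Levels are given in CPM, the usual unit that divides the counts of a gene by all counts in genes of its library, here after scaling between libraries. A count of 3 corresponded to 0.387 to 0.487 CPM in the 6 libraries, a floor that covers counting error only. According to the labels the 3 libraries of each group are biological replicates, and the number of animals behind 1 library is not stated.

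Markers of the dissected region that passed the expression filter were present, and their levels overlapped between the groups. Prox1, the transcription factor that sets granule neuron identity, stood at 83.9, 79.1 and 98.0 CPM in LAC non-responders 1, 2 and 3, and at 129, 51.6 and 69.4 CPM in FSL vehicle 1, 2 and 3. The 11 granule neuron markers tested summed to 686 to 762 CPM in LAC non-responders and 662 to 853 CPM in FSL vehicle. Of the 16 markers listed, 14 were among the counted genes. Dsp, Tdo2, Lct, Dock10 and Glp1r were absent or too low to be tested.

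Markers of neighbouring tissue varied far more between single libraries. Ttr, which encodes the choroid plexus protein transthyretin, stood at 5388 CPM in LAC non-responder 1, and at 7.65 and 40.1 CPM in LAC non-responders 2 and 3. In FSL vehicle it stood at 2783, 19.5 and 289 CPM. The 17 choroid plexus markers tested summed to 244 to 8658 CPM in LAC non-responders and 173 to 5253 CPM in FSL vehicle, and the groups overlapped for each of the 17. The 16 meningeal and fibroblast markers tested summed to 653 to 951 CPM in LAC non-responders and 441 to 4075 CPM in FSL vehicle, the highest sum being that of FSL vehicle 3, and again the groups overlapped for each of them. None of these choroid plexus or meningeal markers was at 0 in any of the 6 libraries. A principal component analysis of these 6 libraries put 51.4% of the variance on its first axis. The ends of that axis were FSL vehicle 3, on the side of meningeal genes such as Slc22a6 and Slc6a13, and LAC non-responder 1, on the side of choroid plexus genes such as Ttr and Kl. In bulk tissue, fewer cells of a type and less RNA per cell cannot be told apart.

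**Figure D1:**
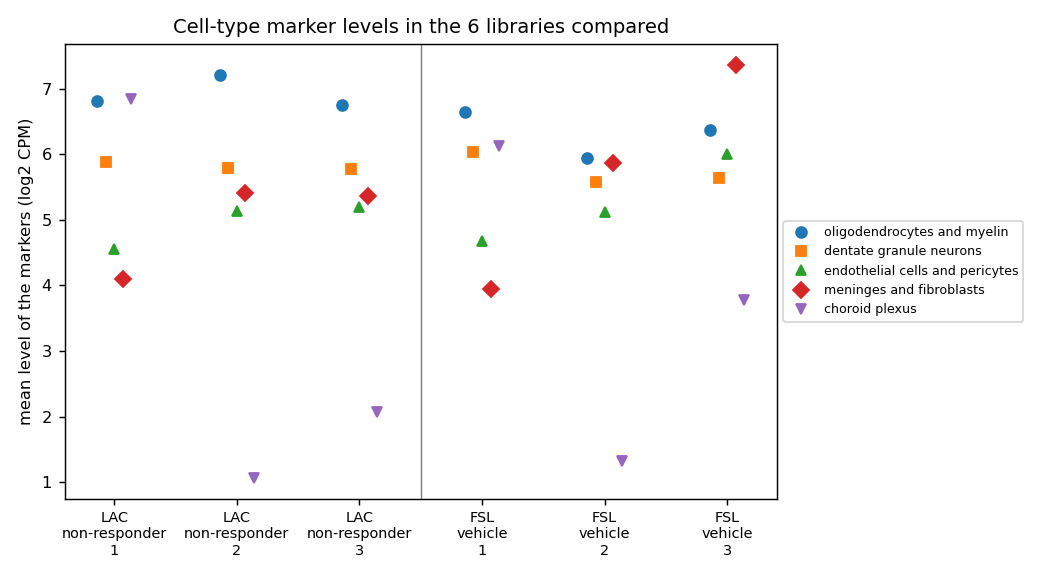
Mean level of the tested markers of 5 cell types (vertical axis, log2 CPM) in each of the 6 libraries (horizontal axis; 3 LAC non-responder libraries left of the line, 3 FSL vehicle libraries right of it). Choroid plexus and meningeal markers spread over several log2 units between libraries of 1 group, while granule neuron markers stay between 5.58 and 6.04 log2 CPM.

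Across the transcriptome no difference was called, which with 3 libraries a side does not show that the groups are alike. No gene of 11750 tested passed an adjusted p of 0.05 (0% called; edgeR quasi-likelihood test, Benjamini-Hochberg adjustment, smallest adjusted p = 0.976, shared by 4061 genes). With an unadjusted p under 0.05 there were 495 genes, 4.21% of those tested, 222 higher (1.89%) and 273 lower (2.32%) in LAC non-responders, where 588 would fall under that p by chance. The 3 LAC non-responder libraries lay wholly above the 3 FSL vehicle libraries in 4.68% of genes and wholly below them in 3.11%, together 7.8%. The log2 fold change was above 0 in 48.9% of genes and below 0 in 51.1%, and its median was -0.0039, with the middle 50% of genes between -0.13 and 0.09. limma-voom also called 0 genes, and DESeq2 called 2, Capn6 and Sgk1. The vehicle libraries weighed heavily on this count: the 495 became 1188, 1161 and 320 genes without FSL vehicle 1, 2 and 3. Every gene named from here on therefore had an adjusted p of at least 0.976 in the edgeR fit, and its values are a description of these 6 libraries.

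**Figure D2:**
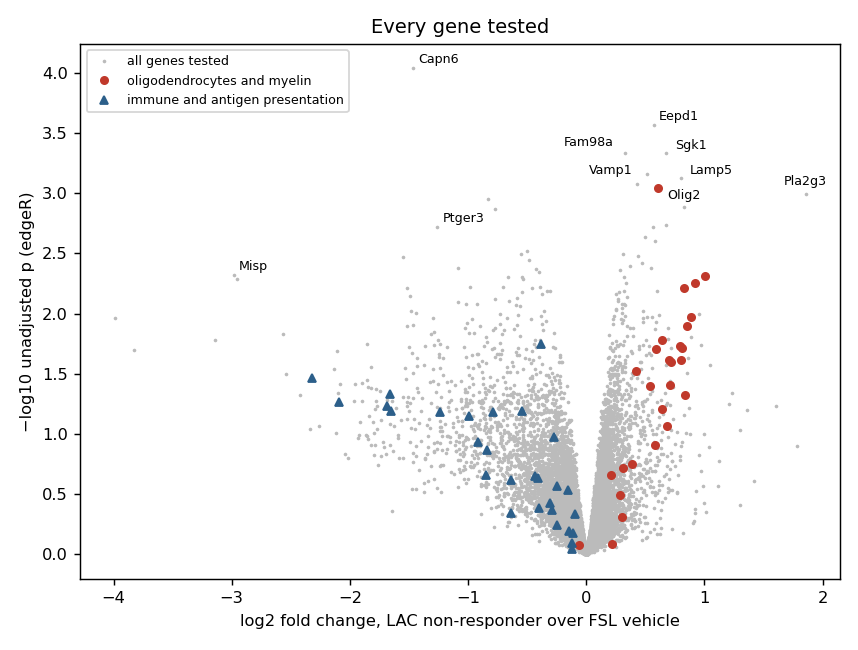
Log2 fold change of LAC non-responders over FSL vehicle (horizontal axis) against the −log10 of the unadjusted edgeR p (vertical axis) for all 11750 genes tested. Oligodendrocyte and myelin genes (red circles) lie on the right, where 26 of 27 are higher in LAC non-responders, and immune genes (blue triangles) on the left, where 29 of 29 are lower.

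Oligodendrocyte and myelin genes had the highest median of the 33 gene lists examined. Of 27 members tested, 26 had higher levels in LAC non-responders, against 48.9% of all genes, and the median log2 fold change was 0.64, against -0.0039 over all genes. Among them 17 had an unadjusted p under 0.05 and a higher level, against 1.89% of all genes, and in 17 the 3 LAC non-responder libraries lay above all 3 FSL vehicle libraries, against 4.68% of all genes. None of the 27 passed over all genes. An excess in this set was already known from these data when it was chosen, so the counts describe it and do not test it.

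Transcripts of structural myelin proteins were higher in LAC non-responders without overlap. Mbp, which holds the cytoplasmic faces of the myelin membrane together, stood at 2743, 4741 and 2954 CPM in LAC non-responders 1, 2 and 3, and at 2268, 1403 and 1966 CPM in FSL vehicle 1, 2 and 3 (log2 fold change 0.89 ± 0.29, SE). LAC non-responder 2 stood well above its group, and every LAC non-responder library lay above every vehicle library.
Mal, a membrane protein that sorts lipids into myelin, was 2.01-fold higher, at 283, 492 and 283 CPM in LAC non-responders and 206, 157 and 164 CPM in FSL vehicle (SE 0.29 on the log2 scale). Mog and Mag, on the outer and the axon-facing surface of myelin, had 0.79 ± 0.29 and 0.72 ± 0.28. Hapln2, a matrix linker at the node of Ranvier, had 0.85 ± 0.29. Cryab, a small heat shock protein abundant in oligodendrocytes, stood at 38.1, 67.0 and 41.6 CPM in LAC non-responders and 27.3, 24.0 and 26.5 CPM in FSL vehicle (0.92 ± 0.27).

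Enzymes of myelin lipids and regulators of the lineage differed less evenly. Ugt8, which makes galactosylceramide, had a log2 fold change of 0.64 ± 0.23, Gal3st1, which makes sulfatide from it, 0.71 ± 0.30, and Fa2h, which hydroxylates their fatty acids, 0.70 ± 0.27. The transcription factor Olig2, needed throughout the lineage, had a small spread, with 38.0, 40.2 and 38.0 CPM in LAC non-responders and 29.4, 26.7 and 20.3 CPM in FSL vehicle (0.61 ± 0.14). Olig1 had 0.42 ± 0.17 with overlapping groups. Sox10 had 0.39 ± 0.27 and Myrf, the factor that starts myelin gene expression, 0.30 ± 0.42, both with overlapping groups. Aspa, which splits acetylaspartate, was the 1 member with a lower mean, at -0.07 ± 0.29.
Of 10 precursor genes tested, 4 were higher and 6 lower (median -0.06), and Bcas1, which marks oligodendrocytes as they begin to form myelin, had 0.87 ± 0.28.

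**Figure D3:**
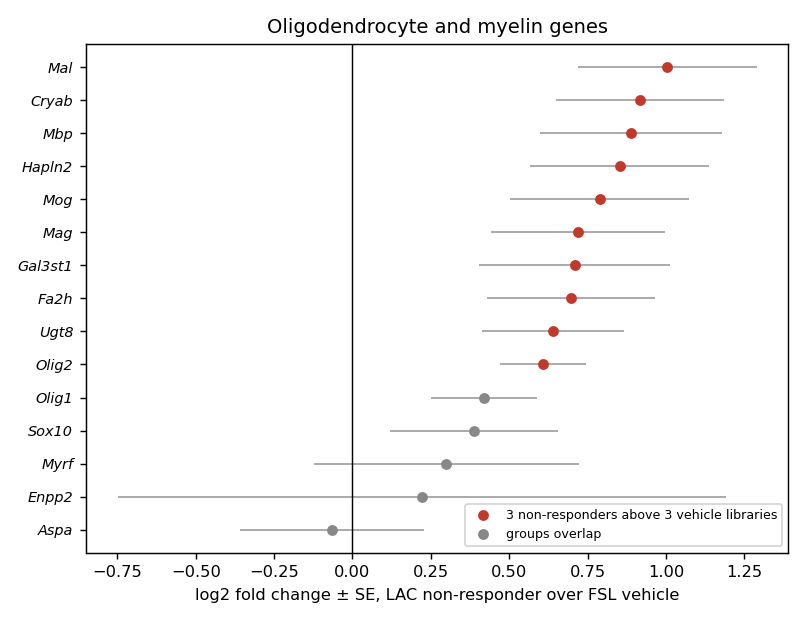
Log2 fold change of LAC non-responders over FSL vehicle (horizontal axis, bars are SE) for 15 of the 27 oligodendrocyte and myelin genes tested. They are those whose level or fold change the text gives. Red points mark the 10 of them whose 3 LAC non-responder libraries lie above all 3 FSL vehicle libraries, with Mal highest, at a 2.01-fold higher level, and Aspa lowest, at -0.07.

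The summed level of the 27 genes was 10512, 14087 and 9080 CPM in LAC non-responders 1, 2 and 3, and 8769, 5281 and 6527 CPM in FSL vehicle 1, 2 and 3. Enpp2, which the choroid plexus also expresses, added 1737 CPM in LAC non-responder 1 and 1455 CPM in FSL vehicle 1. Without it the sums averaged 10521 ± 2906 CPM in LAC non-responders and 6253 ± 1066 CPM in FSL vehicle (SD, n = 3 each), with no overlap. LAC responders, beside them, had sums without Enpp2 of 7083, 12772 and 8724 CPM, and FRL vehicle had 6555, 9112 and 7592 CPM.
The count of members with p under 0.05 rested on single libraries. It was 4 without LAC non-responder 2, the library highest in myelin, where 1.11% of all genes were higher at that p. It was 5 without FSL vehicle 2, the lowest, where 4.73% of all genes were, and 21 without FSL vehicle 1, where 3.32% were. The median log2 fold change stayed between 0.51 and 0.90 with each library left out, and 24 to 26 of the 27 members had higher levels. How much oligodendrocyte-rich tissue each dissection held was not tested.

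MYRF, a factor that binds myelin genes, has a known core motif, CTGGNAC. The regions around the start sites of 3 of these genes are shown, picked among members of small p because they hold a match. RefSeq promoters (build GRCr8, 250 bases before to 50 bases after the start) were found for 18 of the 27 genes. The core motif on either strand was in 9 of these 18, and in 17.8% of all 27457 promoters of that length. The other motifs searched on both strands were the SOX half-site ACAANG, in 7 of 18 and 41.5% of all promoters, the E-box CAGCTG, in 4 of 18 and 15.1%, the glucocorticoid half-site AGAACA, in 2 of 18 and 20.1% and the full glucocorticoid response element, in 0 of 18 and 0.0255%. The half-site is part of the full response element, so matches to these overlap. A match says only that the letters are there. Capitals below mark the CTGGNAC match, which lies on the reverse strand in each of the 3. Mbp and Cnp, also members of small p, hold a match and are not shown, that of Cnp on the forward strand. Ugt8 and Mobp held none.
Olig2, chr11:43961335-43961634, plus strand: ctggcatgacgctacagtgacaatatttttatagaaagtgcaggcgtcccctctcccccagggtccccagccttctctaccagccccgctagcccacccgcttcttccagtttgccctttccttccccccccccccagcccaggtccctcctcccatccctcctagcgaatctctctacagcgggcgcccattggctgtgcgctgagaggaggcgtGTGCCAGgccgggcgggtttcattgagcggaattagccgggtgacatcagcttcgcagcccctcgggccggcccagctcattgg
Mal, chr3:135341374-135341673, minus strand: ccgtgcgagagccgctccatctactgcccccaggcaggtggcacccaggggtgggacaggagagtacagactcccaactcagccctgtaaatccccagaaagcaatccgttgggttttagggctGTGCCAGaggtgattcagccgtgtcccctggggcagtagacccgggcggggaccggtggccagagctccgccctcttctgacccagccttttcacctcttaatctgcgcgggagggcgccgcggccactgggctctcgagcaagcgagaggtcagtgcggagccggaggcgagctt
Hapln2, chr2:175794389-175794688, minus strand: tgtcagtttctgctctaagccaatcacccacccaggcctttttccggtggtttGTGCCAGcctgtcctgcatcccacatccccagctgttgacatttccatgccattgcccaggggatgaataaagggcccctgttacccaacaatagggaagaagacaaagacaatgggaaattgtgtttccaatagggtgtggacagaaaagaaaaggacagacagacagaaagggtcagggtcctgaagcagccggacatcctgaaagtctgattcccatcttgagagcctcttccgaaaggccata

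Over all genes, the 12 genes of smallest p in each direction with a mean of at least 1 CPM were named. The 12 higher genes were Eepd1, Sgk1, Fam98a, Vamp1, Lamp5, Tmem25, Olig2, Pla2g3, Arrdc2, Map6d1, Spock3 and Lgi3. The groups did not overlap in any of them, where 4.68% of all genes lay wholly higher. A choice by small p favours both that and a small spread within groups, so neither is a separate result.

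Sgk1, a kinase induced by adrenal steroids, acts on ion channels and transporters. It stood at 298, 274 and 309 CPM in LAC non-responders and at 187, 174 and 191 CPM in FSL vehicle, 1.60-fold higher (log2 fold change 0.68 ± 0.14). LAC responders had 223, 320 and 214 CPM. DESeq2 gave Sgk1 an adjusted p of 0.0410, and over the 19 alternatives its adjusted p ran from 0.0410 to 1 and its log2 fold change from 0.45 to 0.75. The lowest of these, 0.45, came with the oligodendrocyte marker mean as a covariate. That mean itself did not overlap between the groups, at 6.75 to 7.22 log2 CPM in LAC non-responders and 5.95 to 6.65 log2 CPM in FSL vehicle. Values with this covariate, here and below, therefore do not assign a cause.

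Vamp1, a vesicle protein of the fusion machinery common in fast-firing neurons, stood at 243, 221 and 236 CPM in LAC non-responders and at 192, 155 and 144 CPM in FSL vehicle (0.51 ± 0.11). Lamp5, a membrane protein that marks a class of GABAergic interneurons, stood at 54.9, 52.7 and 52.2 CPM in LAC non-responders and at 28.1, 31.1 and 32.5 CPM in FSL vehicle, 1.74-fold higher (0.80 ± 0.18). The 3 libraries of each group lay close together in Lamp5, which its choice by small p favours. Its log2 fold change stayed between 0.72 and 0.86 over the alternatives.
Spock3, a brain proteoglycan, had 0.56 ± 0.14, Lgi3, a secreted protein of neurons and glia, 0.50 ± 0.13, and Map6d1, a microtubule-stabilizing protein, 0.67 ± 0.17. Spock3 and Lgi3 were at 0.22 and 0.26 with the oligodendrocyte covariate. Tmem25, a transmembrane protein of the immunoglobulin family, had 0.43 ± 0.10.

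Eepd1, an endonuclease-family protein, stood at 31.1, 32.2 and 28.1 CPM in LAC non-responders and at 20.6, 17.8 and 23.2 CPM in FSL vehicle (0.57 ± 0.11). Fam98a, a protein of the tRNA ligase complex, differed by little but with very small spread, at 37.6, 37.5 and 36.9 CPM in LAC non-responders and 29.2, 29.8 and 30.1 CPM in FSL vehicle (0.33 ± 0.07). Arrdc2, an arrestin-domain protein, had 0.82 ± 0.19.
Pla2g3, a secreted phospholipase A2, was 3.63-fold higher, at 3.17, 6.59 and 10.3 CPM in LAC non-responders and 1.30, 2.32 and 1.82 CPM in FSL vehicle (1.86 ± 0.42). Its LAC non-responder libraries differed among themselves by more than its vehicle libraries did, and LAC responders had 1.84, 3.35 and 2.56 CPM. The other large positive differences without overlap were in Lyzl4, a lysozyme-like gene (1.60 ± 0.76), the olfactory receptor Olr59 (1.36 ± 0.66) and the cytochrome P450 Cyp3a9 (1.23 ± 0.55). With the oligodendrocyte covariate Lyzl4, Olr59 and Cyp3a9 had 0.49, 0.20 and 0.08. Olr59 and Cyp3a9 belong to large families of similar genes, so their counts are uncertain.

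The 12 lower genes were Capn6, Fam110a, LOC499742, Ptger3, Thnsl2, Fbxo15, Zic1, Plcb3, Chrne, Mylip, Trib2 and Misp. The groups overlapped only in Misp, where 3.11% of all genes lay wholly lower, and the choice by small p again favours this. Capn6, a calpain without protease activity that stabilizes microtubules, had the smallest p of all genes. It stood at 2.64, 4.22 and 3.11 CPM in LAC non-responders and at 8.28, 7.74 and 11.6 CPM in FSL vehicle, 2.76-fold lower (-1.47 ± 0.25). DESeq2 gave it an adjusted p of 0.0261, and over the alternatives the adjusted p ran from 0.0261 to 1. LAC responders had 3.55, 3.84 and 2.83 CPM. It stayed lower without FSL vehicle 3, the library with most meningeal RNA, at -1.26.

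Ptger3, a receptor for the inflammatory lipid prostaglandin E2, stood at 1.19, 1.05 and 0.989 CPM in LAC non-responders and at 2.43, 2.71 and 2.66 CPM in FSL vehicle, 2.39-fold lower (-1.26 ± 0.31). LAC responders had 3.19, 2.35 and 1.62 CPM, all above the LAC non-responders. Plcb3, a phospholipase C that carries signals from such receptors, had -0.49 ± 0.13. Chrne, the adult muscle subunit of the nicotinic acetylcholine receptor, had -1.09 ± 0.30 at 1.27 to 3.48 CPM, and it overlaps Gp1ba in RefSeq (GRCr8), so their reads may mix. The same holds for Cryab with Hspb2, Zic1 with Zic4, Klf2 with Eps15l1, Pmch with Parpbp and Hes5 with Pank4.
Mylip, a ubiquitin ligase that removes the low-density lipoprotein receptor, stood at 33.3, 36.8 and 40.6 CPM in LAC non-responders and 51.0, 48.8 and 48.4 CPM in FSL vehicle (-0.42 ± 0.12). Trib2, a pseudokinase, had -0.40 ± 0.11. Fam110a had -0.83 ± 0.19, LOC499742 -0.77 ± 0.18, Fbxo15, an F-box protein, -0.55 ± 0.15, and Thnsl2, a threonine synthase-like enzyme, -0.50 ± 0.13.

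In some of the lower genes FSL vehicle 3 was the highest library, as in the meningeal markers. Zic1, a transcription factor of meninges and thalamus, stood at 5.15, 7.25 and 7.77 CPM in LAC non-responders and at 9.25, 15.9 and 34.0 CPM in FSL vehicle (-1.55 ± 0.42), and at -0.90 without FSL vehicle 3. Misp, a protein of the mitotic spindle, was at 0.264, 0.791 and 0.283 CPM in LAC non-responders and 0.649, 4.90 and 5.32 CPM in FSL vehicle. The other large negative differences without overlap were in Car13, a carbonic anhydrase (-2.11 ± 0.78), Enpp3, a nucleotide-splitting ectoenzyme (-1.52 ± 0.51), and Cyr61. Cyr61, a matrix signalling protein induced by growth factors, had -1.65 ± 0.76. In Car13 and Enpp3 FSL vehicle 2 was the highest library, at 11.6 and 6.97 CPM, with FSL vehicle 3 at 10.9 and 6.44 CPM. In Cyr61 LAC non-responder 2, at 10.3 CPM, lay just under the lowest vehicle library, at 10.6 CPM.

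**Figure D4:**
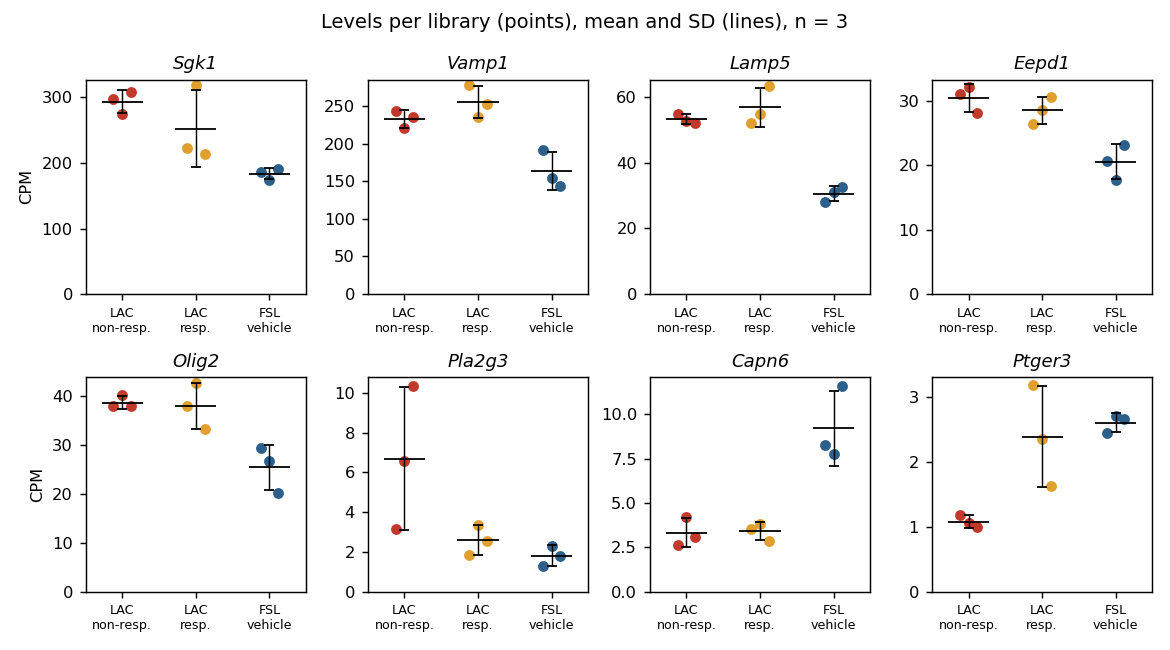
Levels in CPM (vertical axes, from 0) of 8 genes in the 3 LAC non-responder, 3 LAC responder and 3 FSL vehicle libraries. Points are libraries, long lines means and short bars SD; LAC non-responders lie above FSL vehicle in the first 6 genes, with Lamp5 at 52.2 to 54.9 against 28.1 to 32.5 CPM, and below it in Capn6 and Ptger3.

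Most genes of transmitter release and excitability had slightly higher levels. Of 35 genes of vesicle release tested, 27 were higher and 8 lower in LAC non-responders (median log2 fold change 0.11). With p under 0.05 there were 3, all higher, where 1.89% of all genes were higher at that p: Vamp1, the fusion protein Snap25 (0.26 ± 0.11) and the active-zone scaffold Rims1 (0.20 ± 0.08). Snap25 stood at 1675, 1531 and 1677 CPM in LAC non-responders and at 1512, 1405 and 1154 CPM in FSL vehicle, and its log2 fold change was 0.16 without FSL vehicle 3.
Of 37 channel genes tested, 29 were higher and 8 lower (median 0.15). The 3 with p under 0.05 were all higher, against 1.89% of all genes, among them the axonal potassium channel Kcna1 (0.50 ± 0.18) and the interneuron-rich sodium channel Scn1a (0.37 ± 0.17). Kcna1 stood at 113, 108 and 121 CPM in LAC non-responders and at 95.6, 67.1 and 78.5 CPM in FSL vehicle. Both lists kept positive medians with each of the 6 libraries left out, from 0.05 to 0.19 for vesicle release and from 0.09 to 0.26 for channels. With the oligodendrocyte covariate, which itself did not overlap between the groups, the channel median was 0.012. In that fit 23 of 37 were higher and 0 of them at p under 0.05. The part of oligodendrocyte RNA in these values was not tested.
In glutamate receptors and uptake, 16 of 30 genes were higher (median 0.01) and none had p under 0.05. GABA receptors were split 7 to 7 (median -9.7e-05). Of 15 interneuron markers tested, 12 were higher (median 0.11). Only Lamp5 had p under 0.05, where 1.89% of all genes were higher at that p.

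Stress-related genes gave no common direction. The glucocorticoid receptor Nr3c1 stood at 232, 300 and 250 CPM in LAC non-responders and at 242, 233 and 257 CPM in FSL vehicle (0.10 ± 0.12). The mineralocorticoid receptor Nr3c2 stood at 209, 154 and 191 CPM in LAC non-responders and at 203, 150 and 149 CPM in FSL vehicle (0.14 ± 0.34). The groups overlapped in both genes. Fkbp5, a co-chaperone that dampens the glucocorticoid receptor and is itself induced by it, had -0.08 ± 0.26, and the stress peptide Crh -0.08 ± 0.43 at 1.32 to 1.79 CPM.
Of 24 glucocorticoid-induced genes tested, 7 were higher and 17 lower (median -0.08). Sgk1 and Pdk4, a kinase that blocks pyruvate use (0.66 ± 0.29), were higher with p under 0.05, and the metallothionein Mt1a was lower (-0.48 ± 0.21). Over all genes 1.89% were higher and 2.32% lower at that p. Pdk4 had 0.42 without LAC non-responder 3, and Mt1a -0.30 without LAC non-responder 1. Without FSL vehicle 3 the median was 0.07 and 15 of the 24 were higher.

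Immediate early genes, which neurons switch on with activity, leaned lower: 24 of 35 tested were lower (median -0.18). Those with p under 0.05 were Klf2 (-1.02 ± 0.39), Klf4 (-0.99 ± 0.40) and Sik1 (-0.58 ± 0.26), where 2.32% of all genes were lower. In each of them FSL vehicle 3 was the highest library, at 18.1, 37.8 and 50.7 CPM. Klf2 and Klf4 are also abundant in endothelial cells, whose 20 tested markers summed to 746 to 1090 CPM in LAC non-responders and to 813 to 1948 CPM in FSL vehicle. The part of endothelial RNA in these differences was not tested. Without FSL vehicle 3 Klf2 had -0.61, Klf4 -0.57 and Sik1 -0.16. Sik1 had 0.11 with the 3 libraries richest in choroid plexus RNA left out, which leaves FSL vehicle 2 as the only vehicle library. The neurotrophin Bdnf stood at 79.2, 52.2 and 59.6 CPM in LAC non-responders and at 51.3, 64.5 and 39.3 CPM in FSL vehicle (0.30 ± 0.19).
In the circadian clock 8 of 17 genes were higher. At p under 0.05 there were 1 higher and 2 lower, where 1.89% and 2.32% of all genes were. Per2 (-0.37 ± 0.14) and Dbp (-0.32 ± 0.14) were lower, and Nfil3 (0.47 ± 0.20), which represses the genes Dbp activates, was higher. Per2 stood at 140 CPM in FSL vehicle 3 and had -0.20 without that library, and the groups overlapped in Dbp. No source used here gives the time of day of dissection.

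Genes of the pathways that LAC feeds differed little. The carnitine acetyltransferase Crat, which moves acetyl groups between carnitine and coenzyme A, stood at 129, 119 and 126 CPM in LAC non-responders and at 136, 129 and 112 CPM in FSL vehicle (-0.02 ± 0.09). Cpt1a, the gate of fatty acids into mitochondria, stood at 64.4, 64.0 and 59.2 CPM in LAC non-responders and at 62.2, 69.1 and 75.2 CPM in FSL vehicle (-0.14 ± 0.09). Of 30 carnitine and fatty acid oxidation genes tested, 8 were higher, 22 lower and none had p under 0.05 (median -0.05).
In oxidative phosphorylation 41 of 45 genes were higher with a median of 0.07, and in glycolysis and the citrate cycle 30 of 35 with the same rounded median. Pkm, the last enzyme of glycolysis (0.19 ± 0.08), and Pdk2, a brake on pyruvate entry into the citrate cycle (0.22 ± 0.09), had p under 0.05. At that p 1.89% of all genes were higher. Without FSL vehicle 3, 20 of the 45 and 19 of the 35 were higher, and once the 3 libraries with most choroid plexus RNA were left out, 3 and 10 were. Of 22 genes of cholesterol synthesis, a pathway myelin formation draws on, 18 were higher (median 0.14) and none had p under 0.05.
Among 21 genes of histone acetylation and DNA methylation 11 were higher (median 0.0030). Acss2, which makes acetyl-coenzyme A from acetate, stood at 99.9, 91.5 and 87.1 CPM in LAC non-responders and at 75.6, 80.5 and 75.9 CPM in FSL vehicle (0.26 ± 0.10). Sirt2, a deacetylase abundant in oligodendrocytes, had 0.26 ± 0.10. These 2 were the members of that list with p under 0.05, where 1.89% of all genes were higher. The insulin receptor Insr had -0.03 ± 0.16 and the metabotropic glutamate receptor Grm2, an autoreceptor of granule cell terminals, -0.11 ± 0.24.

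Several lists with lower medians followed FSL vehicle 3. All 16 meningeal and fibroblast genes were lower (median -1.25), as were all 29 immune and antigen presentation genes (-0.43), 16 of 20 endothelial and pericyte genes (-0.35) and all 5 blood cell genes (-0.62). Without FSL vehicle 3 those medians were -0.15, -0.0019, 0.02 and 0.27. Cd74, the chaperone of class II antigen presentation, stood at 6.33, 17.0 and 19.1 CPM in LAC non-responders and at 7.47, 47.6 and 157 CPM in FSL vehicle (-2.32 ± 0.96, and -0.97 without that library). Ifitm1, an interferon-induced protein, had -1.66 ± 0.74, and the adhesion molecule Vcam1 -0.39 ± 0.14. Without FSL vehicle 3 Ifitm1 had -0.88 and Vcam1 -0.23. Those 3 were the immune genes with p under 0.05, where 2.32% of all genes were lower at that p. With the replicate number as a block there were 8, where 3.49% of all genes were lower. Of endothelial and pericyte genes Rgs5 (-0.32 ± 0.13) and Itm2a (-0.38 ± 0.17) had p under 0.05, where 2.32% of all genes were lower. With the block 6 were lower at that p, where 3.49% of all genes were. Itm2a had -0.18 without FSL vehicle 3. Without FSL vehicle 1, the vehicle library lowest in meningeal RNA, 14 immune and 13 meningeal genes were lower with p under 0.05, where 6.68% of all genes were. The part of meningeal tissue in these values was not tested.
Of 10 thalamic and hypothalamic genes tested, 8 were lower (median -0.52). Zic1, Prkcd and Pmch had p under 0.05, where 2.32% of all genes were lower at that p. Prkcd, a kinase of thalamic neurons, had -0.78 ± 0.24, and -0.44 without FSL vehicle 3. The median of the 10 genes was -0.09 without that library. It was 0.25 with the 3 libraries richest in choroid plexus RNA left out, a fit with FSL vehicle 2 as its only vehicle library. Pmch, a hypothalamic peptide gene, was at 0.132, 0.132 and 0 CPM in LAC non-responders, under the floor of 3 counts, and at 1.95, 0.516 and 2.10 CPM in FSL vehicle.

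The remaining cell-type lists lay near the median of all genes. Medians were 0.07 for granule neurons (7 of 11 higher), 0.02 for mossy cells and CA3 (6 of 11), -0.05 for CA1, CA2 and subiculum (4 of 12), -0.03 for astrocytes (6 of 14), -0.10 for microglia (5 of 15), -0.13 for striatum (2 of 10) and -0.05 for ependymal cells (2 of 6). In these 7 lists only Nov, a matricellular protein of hippocampal neurons, had p under 0.05 (-0.73 ± 0.26). Over all genes 2.32% were lower at that p. FSL vehicle 2 was its highest library, at 347 CPM, and without it Nov had -0.41. The median was 0.48 for choroid plexus (15 of 17 higher), where LAC non-responder 1 and FSL vehicle 1 held most of the signal. That direction was not stable: the median was -3.79 with 0 of 17 higher without LAC non-responder 1, 2.83 without FSL vehicle 1, -0.16 with limma-voom and -0.17 with the replicate block.
Of 16 progenitor and neurogenesis genes 11 were lower (median -0.06). Hes5, a Notch target of neural stem cells, stood at 1.06, 2.11 and 3.11 CPM in LAC non-responders and at 5.36, 6.97 and 2.66 CPM in FSL vehicle (-1.26 ± 0.45). Medians were 0.04 for ribosomal proteins (27 of 36 higher), 0.01 for heat shock and the unfolded protein response (17 of 28), 0.01 for insulin and growth factor signalling (16 of 28) and 0.02 for the stress hormone axis (7 of 12), with no member at p under 0.05.

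**Figure D5:**
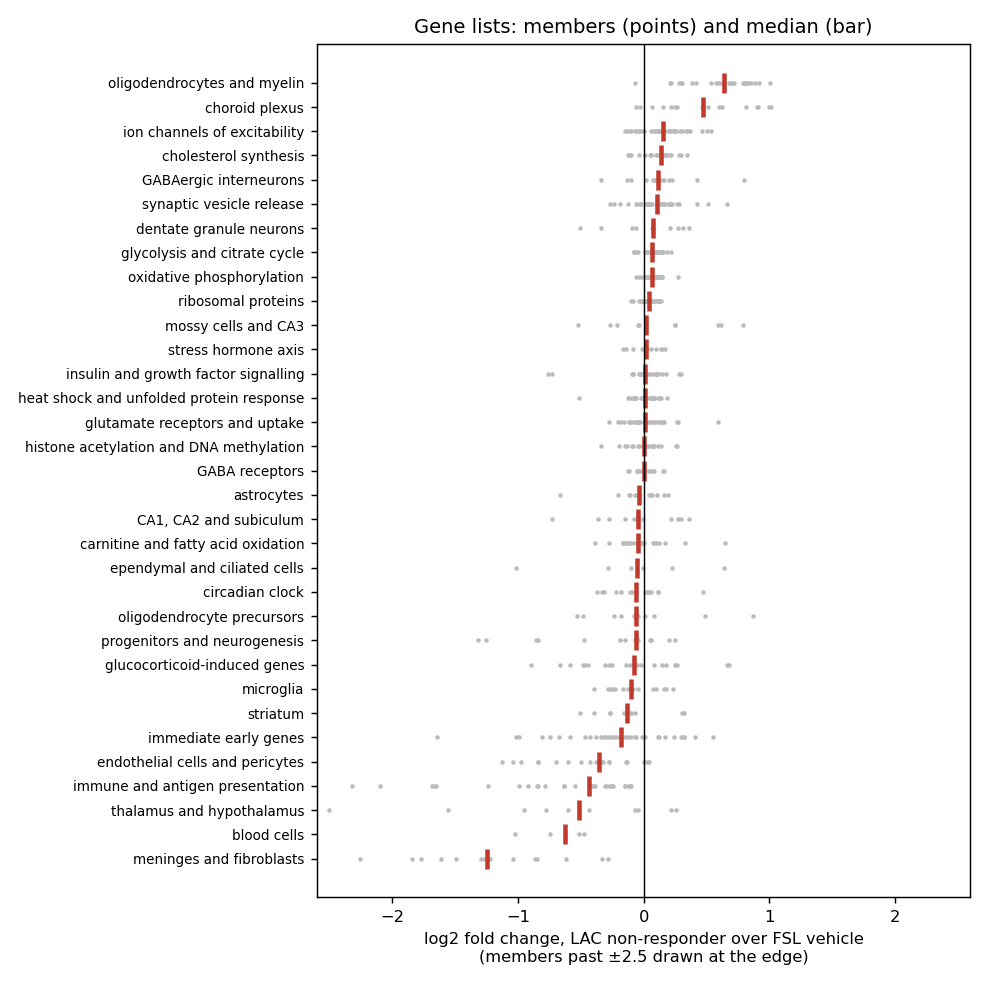
Log2 fold change of LAC non-responders over FSL vehicle (horizontal axis) for the tested members (grey points) and the median (red bar) of the 33 gene lists, ordered by median. Oligodendrocyte and myelin genes have the highest median, 0.64, and meningeal and fibroblast genes the lowest, -1.25.

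The contrast of LAC responders with LAC non-responders tests whether the 2 LAC groups differ from FSL vehicle by unlike amounts. Both LAC groups are set against the same FSL vehicle libraries, so those values stand side by side only. The 11 granule neuron markers summed to 607 CPM in LAC responder 1, where Prox1 stood at 9.19 CPM, and to 472 CPM in FRL vehicle 2, both below the 6 libraries compared. The fit of LAC non-responders and FSL vehicle alone, which leaves both of those out, called 0 genes and gave 355 with p under 0.05. For the named genes with the smallest p in that contrast, Pmch, Ptger3 and Pla2g3, the adjusted p was 0.992 each, as for all other genes of smallest p. Ptger3 had a log2 fold change of 1.14 ± 0.31 in LAC responders over LAC non-responders, Pla2g3 -1.37 ± 0.41, Fbxo15 0.44 ± 0.15 and Fam110a 0.55 ± 0.19. Each was named because the LAC non-responder libraries differed from FSL vehicle, and the contrast of the 2 LAC groups reuses those libraries. Values that move back toward FSL vehicle are favoured by that choice. In this contrast 369 genes had an unadjusted edgeR p under 0.05, where 588 would by chance. Against FSL vehicle, Vamp1 had 0.64 ± 0.11 in LAC responders and 0.51 ± 0.11 in LAC non-responders. Lamp5 had 0.89 ± 0.17 in LAC responders and 0.80 ± 0.18 in LAC non-responders, and Capn6 -1.43 ± 0.25 in LAC responders and -1.47 ± 0.25 in LAC non-responders. The myelin list had a median of 0.54 in LAC responders and 0.64 in LAC non-responders. The immune list had -1.15 in LAC responders and -0.43 in LAC non-responders, and the meningeal list -2.80 in LAC responders and -1.25 in LAC non-responders. The summed meningeal level was 192 to 461 CPM in LAC responders, 653 to 951 CPM in LAC non-responders and 441 to 4075 CPM in FSL vehicle.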

How the data were processed

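RNA-seq libraries of ventral dentate gyrus were analysed from raw read counts per gene symbol, which the authors deposited as whole numbers, not normalized, 1 file per library with 17172 genes and 5 summary lines. The build rn5 is listed in the submitters' processing notes, beside HTSeq 0.6.1, TopHat2 2.0.9, edgeR 3.12.0, Trimmomatic 0.33 and FastQC 0.11.3, with no role or order. No source used here states the annotation or the strand setting, so reads of genes that overlap, antisense ones included, may mix. Summary lines, as shares of each file's total (reads in no gene, 47.7% to 52.7%; ambiguous, 0.0756% to 0.106%; several alignments, 24.3% to 28.4%), were left out. Counts in genes were 6154421 to 7723181 in the 6 libraries compared.

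Genes were tested with edgeR 4.0.16 in R 4.3.3: TMM scaling, the default expression filter and the two-sided quasi-likelihood test, robust, on a model of the 4 groups in 12 libraries. Benjamini-Hochberg adjustment ran over 11750 genes. SE is the log2 fold change over the square root of the F statistic. Genes were named by fixed rules: the 12 smallest p in each direction and the 4 largest rises and falls without overlap (mean of at least 1 CPM), up to 4 members of each of 33 lists with p under 0.05, 9 fixed genes, and genes called by an alternative with at most 5 calls. Further list members serve as examples, picked with their values known, and some genes that these rules name are not reported here. The members and lists were chosen with earlier results of these data known. Alternatives used DESeq2 1.42.0, limma 3.58.1, other scaling, filters, libraries and covariates. The fit was tested on simulated counts. Deviations from the group mean correlated between same-numbered LAC non-responder and FSL vehicle libraries (0.581, 0.212 and 0.426). LAC non-responder 2 correlated more with FSL vehicle 3 (0.318), and the libraries numbered 1 were those highest in choroid plexus markers. The labels name no pairing, and these values do not establish one.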

Additional observations from a re-analysis of the deposited data

How the results depend on the processing

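The number of genes past an adjusted p of 0.05 was 0 in the edgeR fit and in 18 of 19 alternatives, and 2 with DESeq2, whose smallest adjusted p was 0.0261. It was 0 in each of the 6 fits with a library left out. The number with an unadjusted p under 0.05, 495, ran from 320 to 1188 with a library left out, was 1392 once LAC non-responder 1 and FSL vehicle 1 and 3, all high in choroid plexus RNA, were left out together, and stayed within 1.5 times of 495 elsewhere. That fit holds 1 vehicle library, which is assumed to vary like the other groups. With the replicate number as a replicate block there were 651 such genes in the fit of all 12 libraries and 547 in the 6 libraries alone. Both fits had 0 past the adjusted threshold, so a block by number changed no call.

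Several genes without a called difference turned sign in some fits, Sik1 from an unadjusted p under 0.05. With the oligodendrocyte covariate Nr3c1 had a log2 fold change of -0.14, Crat 0.018 and Fkbp5 0.28. With the meningeal covariate Nr3c2 had -0.053 and Fkbp5 0.092. With those 3 libraries left out Sik1 had 0.11, Bdnf -0.20, Insr 0.47 and Crh 0.019. Insr had 0.0015 with limma-voom. With 1 library left out the ranges were -0.023 to 0.17 for Nr3c1, -0.22 to 0.11 for Insr, -0.088 to 0.048 for Crat, -0.18 to 0.0060 for Crh and -0.31 to 0.13 for Fkbp5. The cause was not tested. The oligodendrocyte median was 0.04 with its own marker mean as a covariate, by construction, and was 0.51 to 0.90 with a library left out. A count of 3 corresponded to 0.387 to 0.487 CPM, so Pmch and Misp rest on few reads in LAC non-responders.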
